A study of Mus musculus with 12 samples.

Results

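Osteoclasts cultured with eosinophils (OCsEo) were compared with untreated osteoclasts (OCsCtr) across all genes that could be tested. The comparison uses the 4 OCsEo and 4 OCsCtr libraries as labelled, 8 of the 12 RNA-seq libraries of the series. The other 4 libraries are osteoclasts given eosinophil supernatant (OCsEoS), which share the controls and enter here only where a difference between both treatments was tested. All osteoclasts came from bone marrow derived monocytes (BMMs) of wild type BALB/c mice that were differentiated with M-CSF and RANKL. OCsEo received live eosinophils from the start, at a ratio of 1 BMM to 2 eosinophils, for 48 hours, after which the wells were washed, and all cultures were harvested on day 3. Per the methods, the eosinophils were sorted from blood and bone marrow of IL-5 transgenic 4get reporter mice, so the added cells carry transgenes that the osteoclasts lack. The 4 libraries of each group are described as biological replicates, and the study's legend for them gives each symbol as a mouse. Whether 1 mouse gave a library in every group is not stated.

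Osteoclasts are the bone resorbing cells of the body. They arise when RANKL drives macrophage precursors to leave the cell cycle, fuse and switch on NFATc1. The mature cell seals a patch of bone with a ring of podosomes, acidifies the space beneath its ruffled border with a proton pump and a chloride channel, and releases cathepsin K and matrix metalloproteinases into it. Eosinophils are granulocytes that depend on IL-5 and store eosinophil peroxidase and cationic proteins in their granules. Whether and how they alter osteoclast differentiation was the question of the study.

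Of 47643 genes in the table, 13681 passed a filter on low counts and were tested. Total counts ranged from 28014177 to 40327869 per library, and 3 counts corresponded to 0.0744 to 0.107 CPM by total counts, without TMM scaling. All other CPM are counts relative to the TMM-scaled library size. A gene was called at a Benjamini-Hochberg adjusted p under 0.05 over all genes tested in edgeR's quasi-likelihood test together with an absolute log2 fold change over 0.5. Every adjusted p below is from that test, and every change is a log2 fold change of OCsEo over OCsCtr with its standard error (SE). Called higher in OCsEo were 447 genes (3.27% of those tested), and 357 genes (2.61%) were called lower. Of the higher genes, 99 changed by more than 1 on the log2 scale, against 37 of the lower genes. The median absolute change was 0.68 among the higher and 0.66 among the lower genes, so most of the response was modest in size. All 4 OCsEo libraries lay above all 4 OCsCtr libraries for 1441 genes (10.5% of those tested), and all lay below for 1498 (10.9%). The groups did not overlap for 391 of the genes called higher and 330 of those called lower. Measured as summed mean CPM, the genes called higher went from 35371 in OCsCtr to 55804 in OCsEo and the genes called lower from 64950 to 42027. The lower genes therefore included the most abundant osteoclast transcripts, although they were fewer. In the plot of level and change, the largest fold changes belong to genes near the floor of detection, and 41 of the higher and 18 of the lower genes had a mean log2 CPM under 1. As in any bulk sample, fewer cells of a type and less RNA per cell cannot be told apart.

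**Figure D1:**
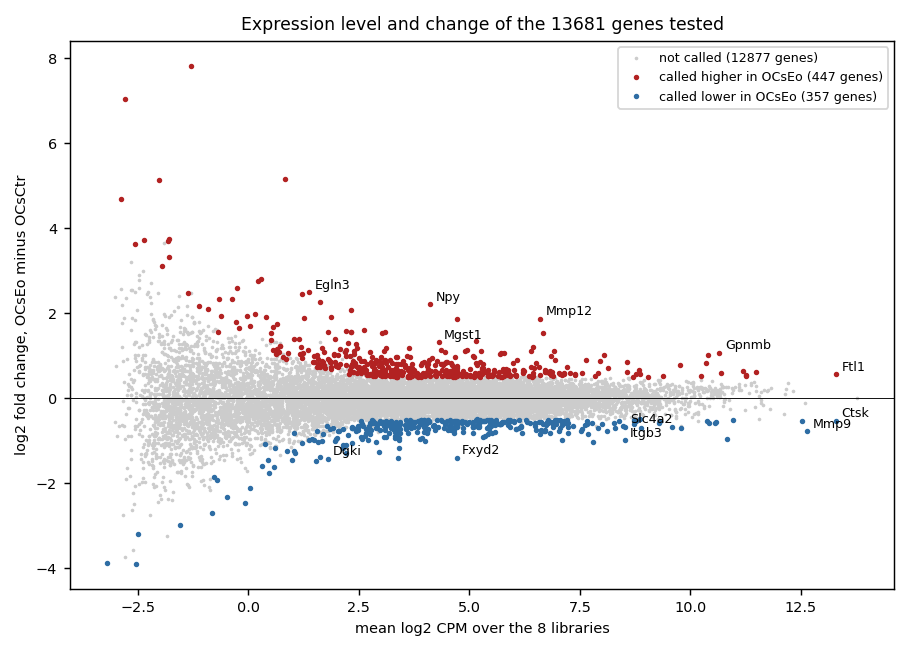
Mean log2 CPM over the 8 libraries (x axis) against the log2 fold change of OCsEo over OCsCtr (y axis) for the 13681 genes tested, with the 447 genes called higher in red, the 357 called lower in blue and the others in grey. Gpnmb and Mmp12 stand out among well expressed genes that rose, and Ctsk and Mmp9 lie at the far right among those that fell.

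The cells carried the markers of their label. Of 11 osteoclast markers all were tested and none was at 0 in any library. Their summed level was 28476 to 34614 CPM in OCsCtr and 18206 to 23314 CPM in OCsEo, so that the groups did not overlap. Of the 11 markers, 8 fell, beside 2.61% of all genes tested, and none rose. Among them was Calcr, the calcitonin receptor, which went from a mean of 151 to 86.0 CPM (log2 fold change −0.81, adjusted p = 0.000205). Tnfrsf11a, which encodes RANK, was at 116 and 106 CPM (−0.13, adjusted p = 0.208).

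Genes of the resorbing machinery were lower in OCsEo. Of 13 tested genes for acid secretion and vesicle transport at the ruffled border, 7 fell, beside 2.61% of all genes tested. None rose, and 12 had a negative change, beside 6964 of all 13681 genes tested. The median change was −0.54, beside −0.0072 over all genes tested. Slc4a2 (GRCm38 chr5:24423837-24440950), the anion exchanger that balances bicarbonate as protons leave the cell, read 466, 462, 472 and 464 CPM in OCsCtr and 262, 321, 271 and 315 CPM in OCsEo. It fell by 0.67 on the log2 scale (SE 0.069, adjusted p = 1.92e-06), with the controls close together and every treated library far below them. Snx10, a sorting nexin needed for the ruffled border and mutated in osteopetrosis, read 895, 1003, 1043 and 975 CPM in OCsCtr and 540, 617, 631 and 655 CPM in OCsEo (−0.68, SE 0.090, adjusted p = 3.88e-05). Clcn7, the chloride-proton exchanger, fell by 0.67 (adjusted p = 4.82e-05) and Plekhm1, an adaptor of lysosome transport, fell by 0.61 (adjusted p = 1.93e-06). Tcirg1, the osteoclast subunit of the proton pump, went from 1612 to 1109 CPM (−0.54, adjusted p = 2.91e-05), and Slc9b2, a sodium-proton antiporter, from 1847 to 1235 CPM (−0.58, adjusted p = 0.000218). Car2, the carbonic anhydrase that supplies the protons, had a smaller change of −0.31 (adjusted p = 0.025) with overlapping groups and was not called. Rab3d, a secretory GTPase, was the member with a positive change, 0.11 (adjusted p = 0.35).

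Podosome and sealing zone genes shifted the same way. Of 18 tested, 5 fell (beside 2.61% of all genes tested), none rose and 17 had a negative change, with a median of −0.30. Src, the kinase without which osteoclasts form no ruffled border, read 171, 168, 178 and 162 CPM in OCsCtr and 113, 124, 107 and 121 CPM in OCsEo (−0.55, SE 0.070, adjusted p = 2.6e-05). Sh3pxd2a, the podosome scaffold TKS5, read 42.7, 44.9, 44.4 and 38.4 CPM in OCsCtr and 30.8, 32.1, 25.6 and 21.1 CPM in OCsEo (−0.64, SE 0.11, adjusted p = 0.00059). Cttn, the actin organiser cortactin, fell by 0.51 (adjusted p = 0.000506). Itgb3, the β3 integrin, fell furthest, from 517 to 260 CPM (−0.99, adjusted p = 1.02e-06), and Vcl, vinculin, from 50.5 to 35.1 CPM (−0.52, adjusted p = 0.00334). Itgav, the partner of β3 integrin in the vitronectin receptor, missed the fold change threshold at −0.48 (SE 0.12, adjusted p = 0.00727), although every OCsEo library lay below every control. It passed the threshold without OCsCtr 1 (−0.52), OCsEo 2 or OCsEo 4 (both −0.50). Was, the Wiskott-Aldrich protein, was at 79.6 and 81.0 CPM (0.03, adjusted p = 0.875). With the trend by gene length that is described below taken out, 3 of the 18 were called lower. Sh3pxd2a was then at −0.49 (adjusted p = 0.00372).

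Among matrix proteases and their inhibitors the members moved apart. Of 13 tested, 3 fell and 2 rose, beside 2.61% and 3.27% of all genes tested. Mmp14, a membrane anchored collagenase, read 390, 421, 408 and 392 CPM in OCsCtr and 257, 313, 244 and 287 CPM in OCsEo (−0.55, SE 0.081, adjusted p = 0.000112). Without OCsEo 3 its change was −0.50 (adjusted p = 0.000556), just inside the fold change threshold of 0.5. Ctsk and Mmp9, the abundant osteoclast collagenase and gelatinase, were the other 2 that fell. Without OCsEo 1, where Mmp14 kept its call, 2 of the 13 were called lower. In the other direction went Mmp12, the macrophage elastase, which read 35.7, 65.6, 48.6 and 54.9 CPM in OCsCtr and 203, 170, 179 and 199 CPM in OCsEo, 3.66-fold higher (log2 1.87, SE 0.12, adjusted p = 1.04e-08). Adam8, a membrane protease also listed among fusion genes, went from a mean of 196 ± 26.1 (SD, n = 4) to 297 ± 29.8 CPM (SD, n = 4) (0.60, SE 0.090, adjusted p = 0.00014). Of the inhibitors Timp1, Timp2 and Timp3, and the cystatins Cst3 and Cst7, none was called.

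Of 16 tested transcription factors that promote osteoclastogenesis, 3 fell (beside 2.61% of all genes tested) and none rose, with a median change of −0.05. At an adjusted p under 0.05 with no fold change threshold, 5 had a negative and 2 a positive change. Of all 13681 genes tested, 1143 and 1239 did. Ppargc1b, a coactivator that raises mitochondrial number in osteoclasts, read 23.3, 21.7, 22.1 and 24.3 CPM in OCsCtr and 15.9, 15.0, 12.6 and 15.7 CPM in OCsEo (−0.63, SE 0.12, adjusted p = 0.00147). Prdm1, the repressor Blimp1 that silences anti-osteoclastogenic genes, read 77.4, 89.0, 83.4 and 81.4 CPM in OCsCtr and 54.1, 65.8, 53.7 and 58.4 CPM in OCsEo (−0.51, SE 0.091, adjusted p = 0.000594). Both groups were separate for both genes. Fosl2, an AP-1 family member, was the third (510 to 356 CPM, −0.52, adjusted p = 4.39e-05). The early factor Fos was at 114 and 119 CPM (0.06, adjusted p = 0.657), and the myeloid master regulator Spi1 at 678 and 670 CPM (−0.02, adjusted p = 0.867). Without OCsEo 3, 1 of these 16 was called, as with the length trend taken out, and Prdm1 then stood at −0.48 and −0.46. It was at −0.47 without OCsCtr 2 and −0.48 without OCsEo 1, each time within the fold change threshold but with an adjusted p under 0.05.

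Of 7 tested factors that block osteoclastogenesis, 3 rose (beside 3.27% of all genes tested) and none fell, with a median of 0.45. Id3, an inhibitor of helix-loop-helix factors, went from 38.2 to 55.3 CPM (0.53, adjusted p = 0.000615), and its relative Id2 from 60.3 to 82.6 CPM, below the fold change threshold (0.45, adjusted p = 0.000457). Id1 was called at the margin (0.83, SE 0.28, adjusted p = 0.0489) with overlapping groups of 3.98 to 6.90 and 5.68 to 13.7 CPM. Its call was lost without OCsCtr 2, 3 or 4 or without any 1 of OCsEo 1, 2 and 3 (changes of 0.62 to 0.91, adjusted p up to 0.185). Irf8, the interferon regulatory factor whose loss leads to severe bone loss, was at 17.5 and 21.3 CPM (0.28, adjusted p = 0.105). Without OCsEo 1, 1 of the 7 was called, as with the length trend taken out.

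Of 7 tested signals that osteoclasts send to osteoblasts, 3 fell and 1 rose, with a median of −0.41. Beside them, 2.61% of all genes tested fell and 3.27% rose. The 1 that rose was Igf1, a growth factor for osteoblasts (14.0 to 50.7 CPM, 1.86, adjusted p = 1.54e-07), and the third that fell was Lif, a cytokine of the IL-6 family (8.44 to 5.84 CPM, −0.53, adjusted p = 0.0179). Cthrc1, a secreted coupling factor, read 53.3, 66.9, 64.4 and 68.9 CPM in OCsCtr and 26.7, 38.4, 42.0 and 40.2 CPM in OCsEo (−0.78, SE 0.17, adjusted p = 0.00325). Efnb2, the membrane ligand ephrin B2, read 10.4, 12.3, 11.1 and 11.7 CPM in OCsCtr and 4.72, 8.29, 7.02 and 9.84 CPM in OCsEo (−0.61, SE 0.17, adjusted p = 0.0194). The groups did not overlap for either gene. The call of Efnb2 was lost without OCsCtr 2, OCsEo 1 or OCsEo 3 and with the length trend taken out (−0.44 to −0.58, adjusted p of 0.0504 to 0.0593). Only 2 of the 7 were called lower without a filter on low counts or without OCsEo 4, where Cthrc1 and Efnb2 kept their calls. Sema4d, which restrains osteoblasts, was at 399 and 340 CPM (−0.23, adjusted p = 0.149).

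The 12 largest rises among well measured genes spanned 2.94-fold to 5.65-fold. They were chosen as called genes that averaged at least 1 on the log2 CPM scale, with groups that do not overlap, leaving out genes that the study's text or primers name or that earlier results of these data gave, so their size and separation follow from that choice. Genes shown only in the study's heat maps were not left out, so some may be among them. Egln3 (chr12:54178981-54203860), a prolyl hydroxylase that marks hypoxia inducible factor for decay, read 1.39, 0.682, 1.32 and 1.27 CPM in OCsCtr and 2.45, 4.73, 6.72 and 12.5 CPM in OCsEo, 5.65-fold higher (log2 2.50, SE 0.49, adjusted p = 0.00146). The OCsEo libraries spread widely, with OCsEo 1 lowest and OCsEo 4 highest. Cyp4f18, a cytochrome P450 that inactivates leukotriene B4, read 0.971, 1.28, 0.942 and 0.871 CPM in OCsCtr and 4.57, 5.34, 9.77 and 2.60 CPM in OCsEo (2.45, SE 0.39, adjusted p = 0.000225). Npy (chr6:49822710-49829507), the neuropeptide Y gene, was better expressed and tighter, at 8.77, 7.18, 6.12 and 10.3 CPM in OCsCtr and 37.2, 30.5, 39.1 and 42.7 CPM in OCsEo, 4.62-fold higher (2.21, SE 0.16, adjusted p = 5.66e-08). Fam101b, which encodes the filamin binding protein refilin B, read 1.73, 1.19, 1.38 and 1.31 CPM in OCsCtr and 7.11, 8.67, 7.31 and 3.67 CPM in OCsEo (2.26, SE 0.30, adjusted p = 3.94e-05). OCsEo 4 was the lowest treated library for both Cyp4f18 and Fam101b and the highest for Egln3 and Npy.

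A pair of serine protease inhibitors stood among them. Serpinb2 (chr1:107511423-107535478), the plasminogen activator inhibitor PAI-2, read 1.46, 1.19, 1.77 and 3.36 CPM in OCsCtr and 7.14, 7.68, 8.82 and 5.58 CPM in OCsEo (1.91, SE 0.28, adjusted p = 0.000124). Serpinb9b, of a family of near-identical granzyme inhibitor genes whose reads may be split in counting, went from 2.43 to 10.3 CPM (2.08, SE 0.21, adjusted p = 2.08e-06). Pglyrp1, a peptidoglycan recognition protein stored in granulocyte granules, read 2.32, 3.62, 2.59 and 2.33 CPM in OCsCtr and 8.67, 6.83, 12.1 and 5.09 CPM in OCsEo (1.59, SE 0.27, adjusted p = 0.000374). Jchain, the joining chain of polymeric immunoglobulins, read 2.88, 1.16, 3.36 and 4.94 CPM in OCsCtr and 6.93, 8.21, 9.87 and 11.5 CPM in OCsEo (1.56, SE 0.30, adjusted p = 0.0013). The remaining members of the 12 were Fabp4 and Mmp12, described with their groups, 1810011H11Rik (1.57, adjusted p = 3.78e-06) and Fam83f (1.55, adjusted p = 0.000446). The antisense gene A430088P11Rik covers 22.9% of the exon bases of Fam83f. As the sources used here do not say whether counting used strand, its reads and those of Fam83f cannot be told apart.

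**Figure D2:**
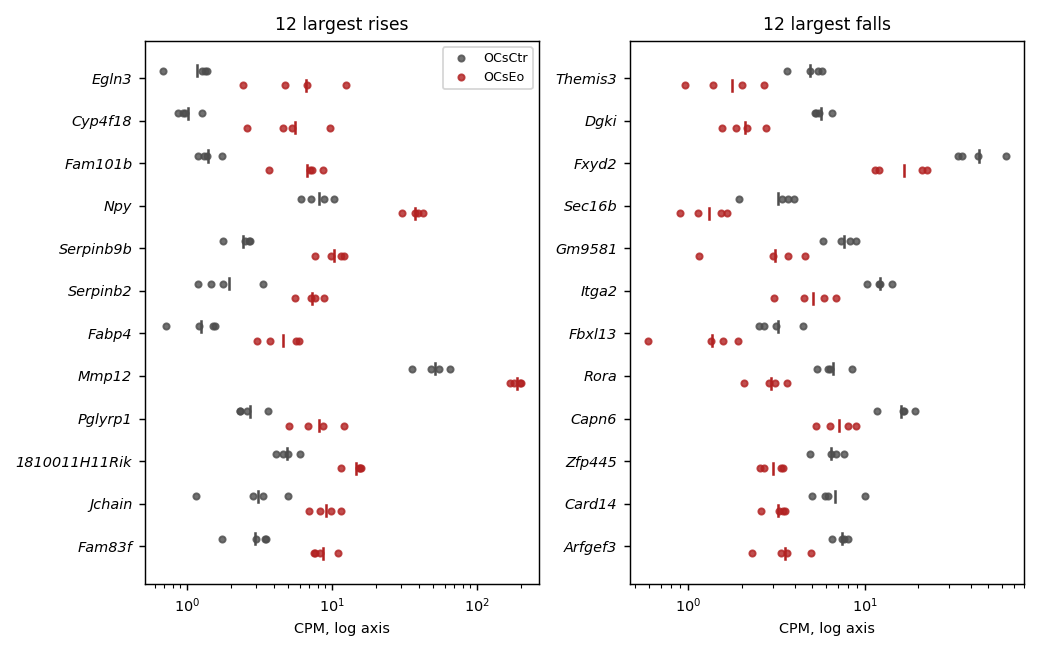
CPM on a log axis for the 12 largest rises (left) and the 12 largest falls (right), with 1 point per library, OCsCtr in grey and OCsEo in red, and a vertical bar at the mean of each group of 4. The groups do not overlap for any of the 24 genes, as the rule required, while the OCsEo libraries of Egln3 spread from 2.45 to 12.5 CPM.

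The 12 largest falls were smaller than the rises and lay mostly among genes of low abundance. Fxyd2, a regulatory subunit of the sodium-potassium pump, was the best expressed of them, at 63.4, 35.5, 33.8 and 43.7 CPM in OCsCtr and 21.1, 12, 11.4 and 22.4 CPM in OCsEo, 2.64-fold lower in OCsEo (log2 −1.40, SE 0.27, adjusted p = 0.00125). Dgki, a diacylglycerol kinase, read 5.23, 5.52, 5.30 and 6.50 CPM in OCsCtr and 2.15, 2.76, 1.87 and 1.56 CPM in OCsEo (−1.43, SE 0.22, adjusted p = 0.000197). Itga2, the collagen binding integrin α2, read 12, 14.3, 12.2 and 10.3 CPM in OCsCtr and 3.05, 5.88, 4.51 and 6.86 CPM in OCsEo (−1.27, SE 0.20, adjusted p = 0.000236). In these genes even the highest OCsEo library stayed well under the lowest control. Rora, a nuclear receptor, went from 6.58 to 2.92 CPM (−1.18, adjusted p = 0.00113), and Capn6, a calpain relative that lacks protease activity, from 16.0 to 7.15 CPM (−1.16, adjusted p = 0.00313). Themis3 (−1.48), Sec16b, a factor of endoplasmic reticulum exit sites (−1.30), Gm9581 (−1.29), Fbxl13, an F-box protein (−1.25), Zfp445, a zinc finger protein of imprinting control (−1.10), Card14, a scaffold of NF-κB signalling (−1.09), and Arfgef3 (−1.06) made up the rest. Sgsh, on the other strand, covers 20.7% of the exon bases of Card14. The call of Fbxl13 was lost without OCsCtr 3 (−1.05, adjusted p = 0.0548).

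Lipid handling genes of macrophages were higher in OCsEo. Of 15 tested, 6 rose, beside 3.27% of all genes tested, and none fell, with a median of 0.44. All 4 OCsEo libraries lay above all controls for 10 of them, beside 10.5% of all genes tested. Gpnmb (chr6:49036546-49070929), a glycoprotein of lysosome-rich macrophages and osteoclasts, read 1023, 985, 1095 and 1392 CPM in OCsCtr and 2436, 2248, 2215 and 2490 CPM in OCsEo, 2.09-fold higher (1.06, SE 0.083, adjusted p = 1.01e-07). Both fatty acid binding proteins named by the rule rose. Fabp5 read 54.4, 53.6, 59.4 and 62.1 CPM in OCsCtr and 145, 109, 146 and 129 CPM in OCsEo (1.20, SE 0.092, adjusted p = 7.2e-08). Fabp4 was far lower, at 1.56, 0.712, 1.21 and 1.52 CPM in OCsCtr and 5.95, 3.72, 5.64 and 3.05 CPM in OCsEo (1.88, SE 0.29, adjusted p = 0.000173). Spp1, the matrix protein osteopontin, went from 360 to 573 CPM (0.67, adjusted p = 1.16e-06), and Plin2, which coats lipid droplets, from 193 to 275 CPM (0.51, adjusted p = 6.7e-06). Cd36, a scavenger receptor for oxidised lipids, went from 59.5 to 173 CPM (1.54, adjusted p = 9.49e-11). The exporters Abca1 (−0.38, adjusted p = 0.325) and Abcg1 (−0.12, adjusted p = 0.651), and Lpl, the lipoprotein lipase (0.04, adjusted p = 0.808), were not called.

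The called genes that gained most in absolute level were chosen by the size of their difference in mean CPM after their values were seen. Ftl1, the ferritin light chain, gained most, at 7729, 8501, 8711 and 8441 CPM in OCsCtr and 12264, 12102, 12920 and 12022 CPM in OCsEo (0.56, SE 0.048, adjusted p = 2.2e-07), though Gm10252 and Gm22133 overlap 34.6% of its exon bases. Next came, in this order, Gpnmb, the cathepsins Ctsd, Ctsb and Ctsl, Gpx1, Psap, Lgals1, Prdx1, Ctss, Tuba1b and Lamp1. Ctsd went from 2319 to 3542 CPM (0.61, adjusted p = 3.72e-07), Ctsb from 1879 to 2940 CPM (0.65, adjusted p = 3.27e-06), Ctsl from 954 to 1947 CPM (1.03, adjusted p = 3.72e-07) and Ctss from 669 to 1152 CPM (0.78, adjusted p = 6.7e-06). Other genes share 34.4% of the exon bases of Ctsd and 26.8% of those of Ctsl. Psap, the precursor of the saposins that help break down sphingolipids, went from 2027 to 2934 CPM (0.53, adjusted p = 1.53e-05) and Lamp1, a protein of the lysosomal membrane, from 553 to 795 CPM (0.52, adjusted p = 2.73e-06). Lgals1, the β-galactoside binding lectin galectin-1, went from 977 to 1737 CPM (0.83, adjusted p = 1.32e-07) and Tuba1b, an α-tubulin with 27.4% of its exon bases shared, from 1009 to 1450 CPM (0.52, adjusted p = 1.53e-05). All of these had separate groups. They rose in the same libraries in which Ctsk, the cathepsin of bone resorption, went from 12122 to 8359 CPM. By the same measure the largest losses among called genes were those of Ctsk, Mmp9 and Acp5, the tartrate-resistant acid phosphatase (7158 to 4901 CPM, −0.55, adjusted p = 0.00115). The mitochondrial mt-Co1 came next, with OCsCtr 1 at 5203 CPM, the other controls at 1394 to 2215 CPM and OCsEo at 1338 to 1441 CPM, so that the groups overlapped (−0.96, adjusted p = 0.0153). Below it stood Atp6v1a, a subunit of the proton pump (2380 to 1675 CPM, −0.51, adjusted p = 0.000154), and, after Slc9b2, Slc37a2, a sugar-phosphate transporter of osteoclast lysosomes (1869 to 1259 CPM, −0.57, adjusted p = 3.75e-06), with Ank, a pyrophosphate transport protein, further down (1130 to 700.3 CPM, −0.69, adjusted p = 1.66e-07).

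Of 17 tested antioxidant and glutathione genes, 4 rose (beside 3.27% of all genes tested) and none fell, with a median of 0.25. Mgst1, a membrane bound glutathione transferase, read 15.1, 10.5, 11.3 and 13.8 CPM in OCsCtr and 39.8, 26.0, 30.4 and 29.7 CPM in OCsEo (1.32, SE 0.15, adjusted p = 6.7e-06). Prdx1, a peroxiredoxin that reduces hydrogen peroxide, read 1249, 1387, 1422 and 1370 CPM in OCsCtr and 2089, 1808, 2180 and 2115 CPM in OCsEo (0.59, SE 0.060, adjusted p = 1.84e-06). Gpx1, the cytosolic glutathione peroxidase, went from 2029 to 2985 CPM (0.56, adjusted p = 1.13e-06), and Hmox1, the heme oxygenase, from 55.7 to 79.5 CPM (0.51, adjusted p = 0.000132). Hmox1 lay near the fold change threshold and fell under it without OCsCtr 4, OCsEo 3 or OCsEo 4 (0.48 to 0.50) and with the length trend taken out (0.46), where 2 of the 17 were called. Not all members of the list moved. Nqo1 was at 24.5 and 23.2 CPM (−0.08, adjusted p = 0.718), Gclc at 58.5 and 58.4 CPM (−0.0043, adjusted p = 0.981) and Slc7a11 at 5.86 and 5.87 CPM (0.0032, adjusted p = 0.994). Of the 7 subunits of the phagocyte NADPH oxidase, which makes superoxide, neither edgeR nor DESeq2 called any. In edgeR 3 had an adjusted p under 0.05 with changes under the fold change threshold, 2 positive and 1 negative, and the same number an unadjusted p under 0.05. Of all 13681 genes tested, 2382 had an adjusted and 4069 an unadjusted p under 0.05. The catalytic subunit Cybb was at 101 and 94.6 CPM (−0.10, adjusted p = 0.645) and its partner Cyba at 1040 and 1401 CPM (0.43, adjusted p = 7.34e-05).

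Of 14 tested chemokine genes 5 rose, beside 3.27% of all genes tested, and none fell. Their median of 0.62 was the highest of the 20 lists. Ccl2, which recruits monocytes, read 20.9, 18.5, 24.0 and 20.6 CPM in OCsCtr and 57.4, 35.4, 53.4 and 37.0 CPM in OCsEo (1.12, SE 0.19, adjusted p = 0.000437). Ccl7, its neighbour with a like role, read 3.92, 2.31, 3.33 and 2.95 CPM in OCsCtr and 9.32, 5.29, 10.6 and 5.34 CPM in OCsEo (1.29, SE 0.24, adjusted p = 0.000934). OCsEo 1 and 3 were the higher treated libraries for both genes. Ccl3, an inflammatory chemokine of macrophages, went from 3.51 to 8.50 CPM (1.28, adjusted p = 0.000947) and Ccl6 from 57.8 to 126 CPM (1.12, adjusted p = 1.34e-06), both without overlap. Cxcl10, an interferon inducible chemokine, was the fifth (0.62, SE 0.17, adjusted p = 0.0144), and its call was lost without OCsCtr 1 (0.53, adjusted p = 0.0532) or OCsCtr 2 (0.48, adjusted p = 0.0541). The abundant Ccl9 was at 2734 and 3052 CPM (0.16, adjusted p = 0.0938).

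Of 12 tested complement components and receptors, 4 rose and 1 fell, beside 3.27% and 2.61% of all genes tested, with a median of 0.47. Cd93, a membrane glycoprotein first described as a C1q receptor, went from 32.9 to 50.6 CPM (0.62, adjusted p = 0.00123). C3ar1, the receptor of the anaphylatoxin C3a, went from 92.0 to 143 CPM (0.64, adjusted p = 0.000281) and C5ar1, the C5a receptor, from 26.8 ± 3.53 (SD, n = 4) to 39.2 ± 7.18 CPM (SD, n = 4) (0.55, SE 0.13, adjusted p = 0.00551). C1qc, a chain of the recognition molecule C1q, read 14.4, 8.13, 11.2 and 18.2 CPM in OCsCtr and 22.9, 19.6, 17.7 and 30.8 CPM in OCsEo (0.81, SE 0.23, adjusted p = 0.0171), with OCsCtr 4 above OCsEo 3. C1qa was at 16.8 and 25.4 CPM with overlapping groups and was not called (0.60, SE 0.27, adjusted p = 0.135). Without a filter on low counts C1qa was called (0.59, adjusted p = 0.00294), as it was with a replicate block. Without OCsCtr 2 or OCsEo 4, 2 of the 12 were called higher, since C1qc (0.64 and 0.63, adjusted p of 0.0609 and 0.073) and C5ar1 (0.46 and 0.42) were lost. C1qc was also lost without OCsCtr 3 (0.74, adjusted p = 0.0541), and without OCsEo 4, 2 members were called lower. Without a filter on low counts, as with the replicate block, 6 were called higher.

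Genes of DNA replication and mitosis were higher. All 20 tested members had a positive change, from 0.33 to 0.67 with a median of 0.49. Of the 20, 9 rose, beside 3.27% of all genes tested, and 19 had an adjusted p under 0.05. Of all 13681 genes tested, 6717 had a positive change, 1239 of them at an adjusted p under 0.05. Plk1, a mitotic kinase, read 40.8, 35.7, 36.6 and 36.9 CPM in OCsCtr and 63.1, 61.0, 55.8 and 59.3 CPM in OCsEo (0.67, SE 0.089, adjusted p = 3.88e-05). Tyms, the thymidylate synthase of DNA synthesis, read 63.1, 57.4, 60.9 and 58.7 CPM in OCsCtr and 93.6, 86.8, 101 and 91.7 CPM in OCsEo (0.64, SE 0.088, adjusted p = 5.88e-05). Both genes were tight within groups and clearly apart between them. Pcna, the sliding clamp of the replication fork, went from 308 to 471 CPM (0.61, adjusted p = 2.17e-05), Ccna2, cyclin A2, from 107 to 162 CPM (0.60, adjusted p = 6.76e-05) and Birc5, survivin, from 90.8 to 138 CPM (0.60, adjusted p = 2.15e-06). Mki67, the proliferation antigen Ki-67, had the same direction with overlapping groups of 11.5 to 26.0 and 19.0 to 32.5 CPM (0.53, SE 0.19, adjusted p = 0.0699). Mki67 was called without OCsCtr 1 (0.74, adjusted p = 0.0107) or OCsEo 3 (0.65, adjusted p = 0.0306) and with DESeq2 on 12 libraries (0.53, adjusted p = 0.0345). Without OCsCtr 1, the library with the most mitochondrial reads (1.434% of its counts, against 0.487% to 0.689% in the other 7), 14 of the 20 were called. The count was 7 without OCsCtr 2, OCsCtr 4 or OCsEo 1.

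**Figure D3:**
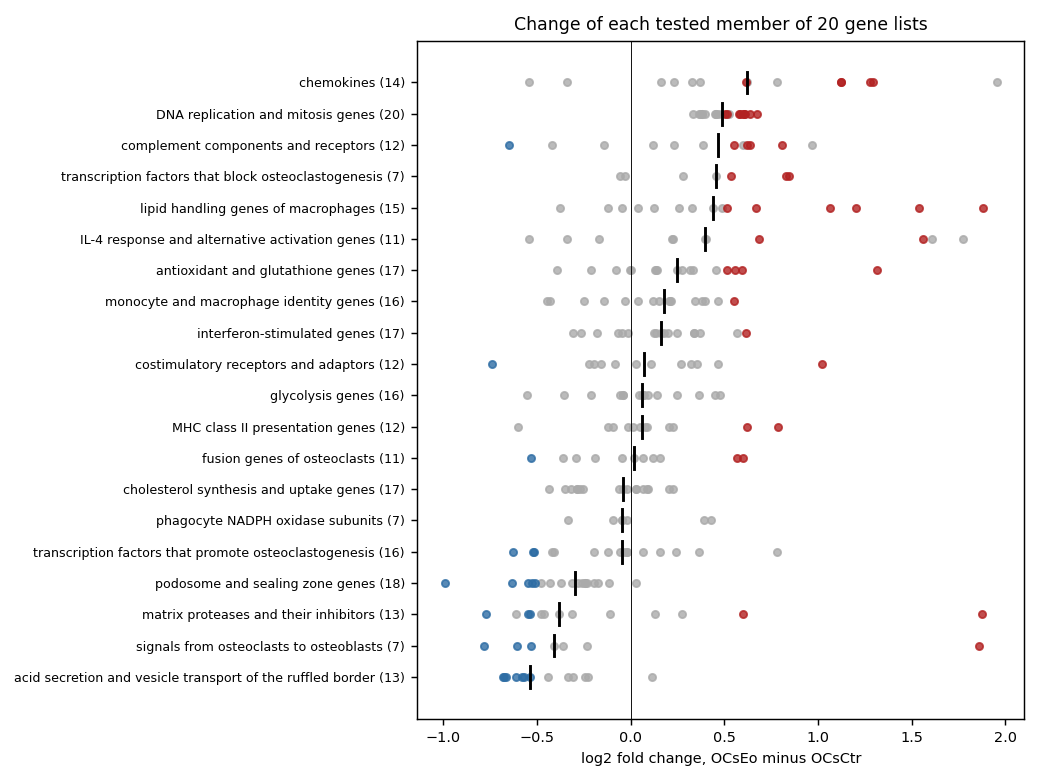
Log2 fold change of OCsEo over OCsCtr (x axis) for each tested member of 20 gene lists, ordered by their median (black bar), with members called higher in red, called lower in blue and not called in grey, and the number tested in brackets. The list medians run from −0.54 for acid secretion to 0.62 for chemokines, and all 20 replication and mitosis genes lie to the right of 0.

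Interferon, glycolysis and cholesterol genes gave 1 call among them. Of 17 tested interferon-stimulated genes, only Cxcl10 rose, beside 3.27% of all genes tested. Ifit1 read 3.29, 3.77, 5.12 and 7.59 CPM in OCsCtr and 4.48, 5.24, 4.61 and 7.90 CPM in OCsEo (0.16, SE 0.26, adjusted p = 0.735). Without OCsCtr 1 or OCsCtr 2 no interferon-stimulated gene was called, and without OCsCtr 4, without a filter on low counts or with the replicate block 2 were. Of 16 glycolysis genes neither edgeR nor DESeq2 called any. In edgeR 6 had an unadjusted and 5 an adjusted p under 0.05, 4 of these with a positive change under the fold change threshold, and Slc2a1, the glucose transporter GLUT1, was at 86.5 and 90.2 CPM (0.06, SE 0.064, adjusted p = 0.597). Of 17 genes of cholesterol synthesis and uptake neither tool called any. In edgeR 8 had an unadjusted and 4 an adjusted p under 0.05, all 4 with a negative change under the fold change threshold in size. Among the 4 was Hmgcs1, an enzyme early in the pathway (55.4 and 45.4 CPM, −0.29, SE 0.085, adjusted p = 0.0241). Beside the glycolysis and cholesterol lists, 4069 of all 13681 genes tested had an unadjusted and 2382 an adjusted p under 0.05. Without OCsCtr 1, OCsCtr 2, OCsEo 1 or OCsEo 2, or with the length trend taken out, 1 glycolysis gene was called higher, and without OCsCtr 1, 1 cholesterol gene was called lower.

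In the lists of antigen presentation, macrophage identity and alternative activation, 2 of 12, 1 of 16 and 2 of 11 genes rose, beside 3.27% of all genes tested, and none fell. Among the 12 genes of MHC class II presentation, Ctss, the cathepsin that trims the invariant chain, and Cd80, a T cell costimulator, rose. Ctss read 607, 603, 669 and 797 CPM in OCsCtr and 1075, 1066, 1093 and 1373 CPM in OCsEo (0.78, SE 0.089, adjusted p = 6.7e-06). Cd80 was at 4.19 and 6.44 CPM (0.62, SE 0.20, adjusted p = 0.0361), and its call was lost without OCsCtr 2, OCsCtr 4, OCsEo 1, OCsEo 3 or OCsEo 4 (0.50 to 0.63, adjusted p up to 0.127). The call of Cd80 was also lost without a filter on low counts (adjusted p = 0.0566) and with the length trend taken out (adjusted p = 0.0646). The class II chain H2-Aa was at 78.4 and 81.1 CPM (0.05, SE 0.11, adjusted p = 0.812). Without OCsEo 2, 1 gene of this list was called lower. Of 16 monocyte and macrophage identity genes C5ar1 alone was called. Adgre1, the macrophage antigen F4/80, read 233, 223, 243 and 293 CPM in OCsCtr and 324, 314, 313 and 418 CPM in OCsEo, and its change of 0.46 (SE 0.096, adjusted p = 0.00211) lay under the fold change threshold. It passed the threshold without OCsCtr 4 (0.55), OCsEo 2 or OCsEo 3 (both 0.50), and C5ar1 was not called without OCsCtr 2 or OCsEo 4.

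Of 11 tested genes of the IL-4 response, Arg1 and Socs1 were called. Arg1, the arginase of alternatively activated macrophages, was near the floor, at 0.555, 0.178, 0.265 and 0.435 CPM in OCsCtr and 0.628, 0.744, 0.666 and 2.22 CPM in OCsEo (1.56, SE 0.50, adjusted p = 0.0341). OCsEo 4 stood far above the other treated libraries, and without it the change was 0.93 (adjusted p = 0.195). The call was also lost without OCsCtr 2, 3 or 4 (adjusted p of 0.0537 to 0.101). Socs1, a feedback inhibitor of cytokine signalling, was at 2.83 and 4.56 CPM (0.69, SE 0.23, adjusted p = 0.0429), and its call was lost when any 1 of OCsCtr 1, 2 and 3 or of the OCsEo libraries was left out (0.64 to 0.72, adjusted p of 0.0587 to 0.102). Socs1 was also not called without a filter on low counts (adjusted p = 0.0643) or with the length trend taken out (adjusted p = 0.0781). No gene of this list was called without OCsCtr 2, OCsCtr 3 or OCsEo 4.

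Of 11 tested fusion genes 2 rose and 1 fell, and of 12 costimulatory receptors and adaptors 1 rose and 1 fell. Over all genes tested, 3.27% rose and 2.61% fell. Neither list showed a common direction. Of 11 fusion genes Cd81, a tetraspanin that holds back macrophage fusion, read 32.8, 27.7, 28.3 and 29.9 CPM in OCsCtr and 40.8, 39.3, 48.2 and 47.7 CPM in OCsEo (0.57, SE 0.094, adjusted p = 0.000327). Adam8 rose as given above, and Ocstamp, which acts with Dcstamp in fusion, fell (523 to 362 CPM, −0.53, adjusted p = 4.61e-05), a call that was lost without OCsCtr 3 or OCsEo 1. Dcstamp, the receptor-like protein that fusion requires, read 1045, 1318, 1471 and 1118 CPM in OCsCtr and 876, 927, 1082 and 970 CPM in OCsEo, overlapping between groups (−0.36, SE 0.090, adjusted p = 0.00778). Of 12 costimulatory receptors and adaptors, the receptor Trem2 rose (187 to 379 CPM, 1.02, adjusted p = 1.27e-09) and the collagen receptor Oscar fell (136 to 81.7 CPM, −0.74, adjusted p = 0.00158), while Tyrobp, the adaptor DAP12 that Trem2 signals through, was at 831 and 896 CPM (0.11, SE 0.059, adjusted p = 0.234). Without OCsCtr 4, OCsEo 1 or OCsEo 2, 2 of the 12 were called higher. Under the other scalings tried (DESeq2 size factors, upper quartile, mitochondrial genes left out, length trend taken out) none of the 20 list medians changed sign.

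Promoter sequence was taken from RefSeq for GRCm38.p6, 250 bases before to 50 bases after a start site, for 338 of the genes called higher (408 windows), 259 of those called lower (355 windows) and 10121 of all genes tested (12869 windows). The AP-1 motif TGANTCA, on either strand, was in 8.33% of the windows of higher genes, 9.86% of those of lower genes and 5.44% of all. The share was thus above that of all windows for both directions of change. The E-box CACGTG was in 7.6%, 9.58% and 9.83%, the antioxidant response element TGACNNNGC in 15%, 15.2% and 14.4%, and the PU.1 motif GAGGAAGT in 5.39%, 3.38% and 3.4% of the windows, in the same order. These are descriptions of the letters in a window, not sites of binding, and AP-1 matches can overlap antioxidant response elements. As examples, chosen after the values and the motifs were seen, the 250 bases before the start site are given for a protease inhibitor that rose, a lysosomal gene that rose, an antioxidant gene that rose and a transcription factor that fell, with the motif named in capitals.

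Serpinb2, chr1:107511173-107511422, plus strand, with an AP-1 motif beginning 94 bases before the start site: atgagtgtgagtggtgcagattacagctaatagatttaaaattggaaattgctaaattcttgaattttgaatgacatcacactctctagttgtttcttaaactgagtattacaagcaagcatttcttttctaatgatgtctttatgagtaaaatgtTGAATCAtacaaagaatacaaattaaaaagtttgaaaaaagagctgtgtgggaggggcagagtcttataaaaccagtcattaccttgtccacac
Lamp1, chr8:13158911-13159160, plus strand, with 4 E-boxes beginning 61, 45, 28 and 15 bases before it: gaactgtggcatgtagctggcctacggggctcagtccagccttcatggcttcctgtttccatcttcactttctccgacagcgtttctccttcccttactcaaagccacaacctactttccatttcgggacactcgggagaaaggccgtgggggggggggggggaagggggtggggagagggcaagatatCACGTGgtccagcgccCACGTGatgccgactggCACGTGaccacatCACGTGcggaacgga
Prdx1, chr4:116685349-116685598, plus strand, with an antioxidant response element, on the reverse strand and overlapping an AP-1 motif, beginning 133 bases before it: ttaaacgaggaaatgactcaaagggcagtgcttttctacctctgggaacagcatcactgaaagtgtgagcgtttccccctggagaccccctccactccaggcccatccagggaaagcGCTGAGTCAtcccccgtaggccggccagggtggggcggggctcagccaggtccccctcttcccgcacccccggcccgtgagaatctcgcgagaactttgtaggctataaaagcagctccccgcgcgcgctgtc
Prdm1, chr10:44458749-44458998, minus strand, with an AP-1 motif beginning 48 bases before it: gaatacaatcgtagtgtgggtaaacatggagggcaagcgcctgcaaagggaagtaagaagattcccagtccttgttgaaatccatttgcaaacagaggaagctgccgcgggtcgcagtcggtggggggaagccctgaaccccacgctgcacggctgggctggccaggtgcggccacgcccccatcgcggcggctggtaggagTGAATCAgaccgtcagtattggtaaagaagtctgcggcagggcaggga

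Markers of other cell types were read beside these results. The 12 neutrophil markers summed to 356 to 504 CPM in OCsCtr and 514 to 682 CPM in OCsEo, without overlap. The larger share was S100a8 (91.0 to 129 against 114 to 168 CPM) and S100a9 (126 to 184 against 177 to 245 CPM), whose groups each overlapped. Of the 12, 11 had a positive and 1 a negative change, beside 6717 positive changes over all 13681 genes tested. For 3 of the 12 every OCsEo library lay above every control, beside 10.5% of all genes tested. The granule protease gene Elane (8.60 to 17.1 CPM, 0.99, adjusted p = 0.00038) and the cathelicidin Camp (20.9 to 29.9 CPM, 0.51, adjusted p = 0.00876) were the 2 that rose, beside 3.27% of all genes tested. None of the 12 was at 0 in all libraries of either group. The 12 eosinophil markers summed to 58.3 to 75 CPM in OCsCtr and 63.9 to 88.0 CPM in OCsEo, of which Ccr3, present in the controls too, made up the larger share (mean 59.6 and 48.7 CPM). Epx, the eosinophil peroxidase gene, had 0 to 6 counts in the OCsCtr libraries and 0 to 18 in the OCsEo libraries, too few to be tested. Of the 12 eosinophil markers 7 were tested, 4 with a positive and 3 with a negative change. Among the negative changes 1 had an adjusted p under 0.05. Siglecf, Alox15 and Il5 were called higher, beside 3.27% of all genes tested, while Prg2 was at 5.53 CPM in OCsCtr and 5.49 CPM in OCsEo. The added eosinophils came from IL-5 transgenic mice, and the source of the Il5 reads was not tested. The OCsEo libraries ranked 3, 2, 1 and 4 by Alox15, at 16.7, 11.4, 9.68 and 6.24 CPM. Cyp4f18 had the same order. Of the remaining lists, T cell, B cell, basophil and mast cell, stromal and osteoblast, erythroid and sex-linked markers held no gene that edgeR called (1 T cell and 2 B cell markers had an unadjusted p under 0.05, and none of the others), with summed levels of at most 63.7 CPM in any OCsCtr and 43.5 CPM in any OCsEo library. The part of these cells in the rises was not tested.

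**Figure D4:**
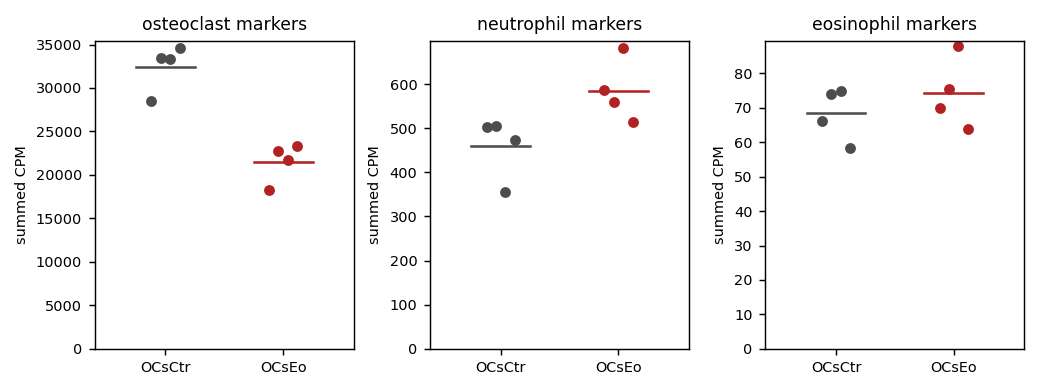
Summed CPM of 11 osteoclast, 12 neutrophil and 12 eosinophil markers (y axes, from 0) in the 4 OCsCtr and 4 OCsEo libraries, 1 point per library in replicate order with a bar at the mean. The osteoclast sums do not overlap (28476 to 34614 against 18206 to 23314 CPM), nor do the neutrophil sums, while the eosinophil sums overlap.

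Whether the response to eosinophils differed from that to their supernatant was tested directly. Across all genes 52 (0.38%) differed between OCsEoS and OCsEo, 42 of them being lower in OCsEoS. Among the genes called higher in OCsEo, 31 of 447 differed between the treatments, and for 30 of these the level was higher with live eosinophils. These genes were chosen for high values in the same OCsEo libraries, which favours that direction, so the count is a description. Of the 357 genes called lower, 3 differed. Among the 70 genes named by rule, 10 differed, and all 10 were lower in OCsEoS, a direction that their choice as genes higher in OCsEo favours in the same way. Psap (−0.54, adjusted p = 0.000157) and Ccl6 (−0.59, adjusted p = 0.0148), described above outside that rule, did so too. So did the eosinophil markers Alox15 (6.24 to 16.7 CPM in OCsEo and 0.178 to 1.13 CPM in OCsEoS, adjusted p = 6.26e-05) and Il5 (1.52 to 4.18 CPM in OCsEo and 0 counts in every OCsEoS library, adjusted p = 0.00013). Granule genes of granulocytes that were not called between OCsEo and OCsCtr were lower in OCsEoS as well, with changes of −2.73 for Prg2 (adjusted p = 0.0261), −0.84 for Ltf (adjusted p = 0.043), −0.79 for Mpo (adjusted p = 0.0441) and −0.62 for Ngp (adjusted p = 0.0148). Prg2 averaged 5.53 CPM in OCsCtr, 5.49 CPM in OCsEo and 0.815 CPM in OCsEoS. It was thus also lower in OCsEoS than in the untreated controls (−2.74, adjusted p = 0.00136). For Ltf, Mpo and Ngp the adjusted p of OCsEoS against OCsCtr was 0.0705 to 0.219. In OCsEoS the neutrophil markers summed to 401 to 467 CPM and the eosinophil markers to 50.2 to 57.0 CPM, in both cases below every OCsEo library. The eosinophil sums of OCsEoS also lay below every OCsCtr library, the lowest of which was at 58.3 CPM. The neutrophil sums of OCsEoS lay within the OCsCtr range of 356 to 504 CPM. The part of these cells in the differences between treatments was not tested. Gpnmb was at 2347 CPM in OCsEo but at 1205 to 1373 CPM in OCsEoS, beside 985 to 1392 CPM in OCsCtr (OCsEoS against OCsEo −0.86, SE 0.083, adjusted p = 1.38e-05). Cyp4f18 (−2.05, adjusted p = 0.0148), Serpinb2 (−1.71, adjusted p = 0.00496), Pglyrp1 (−1.67, adjusted p = 0.00378) and Fam101b (−1.59, adjusted p = 0.0139) showed the widest gaps of the 10. Npy (−1.18, adjusted p = 0.000561), Mmp12 (−0.64, adjusted p = 0.0148) and Fabp5 (−0.63, adjusted p = 0.0012) had OCsEoS libraries between those of the other groups. Fam83f (−1.21, adjusted p = 0.0373) and Ccl3 (−1.06, adjusted p = 0.0439) completed the 10. For Slc4a2 the difference between treatments was 0.13 (SE 0.068, adjusted p = 0.509), for Snx10 −0.02 (SE 0.090, adjusted p = 0.955) and for Src −0.11 (SE 0.070, adjusted p = 0.592).

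**Figure D5:**
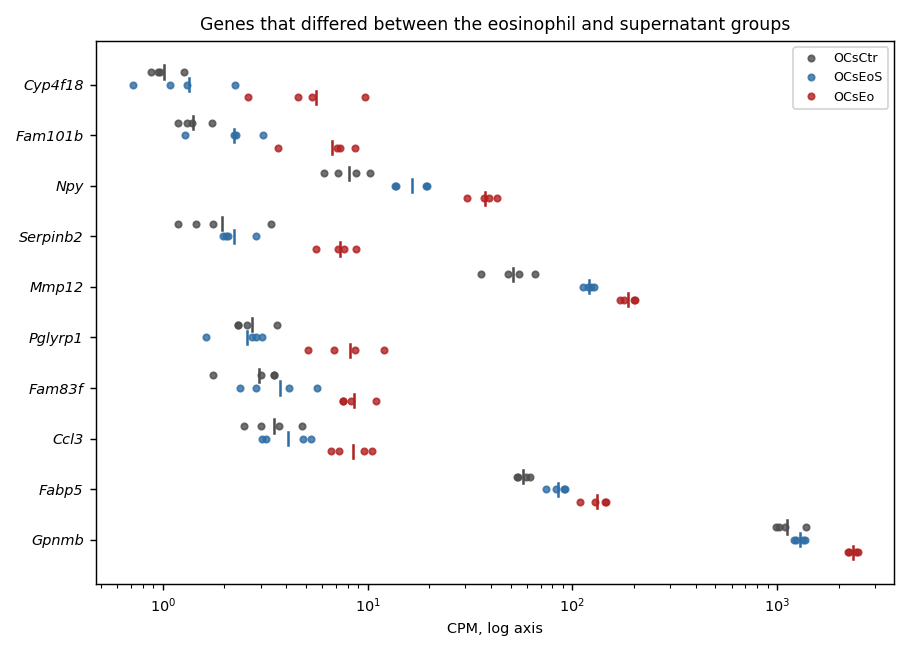
CPM on a log axis for the 10 genes named by rule that differed between OCsEoS and OCsEo, with 1 point per library, OCsCtr in grey, OCsEoS in blue and OCsEo in red, and a bar at the mean of each group of 4. All 4 OCsEo points lie to the right of all OCsEoS points for each gene, and Npy, Mmp12 and Fabp5 have OCsEoS points between both other groups.

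The direction of change went with the length of a gene. The median length was 2766 bases among genes called higher and 5343 bases among those called lower, beside 3634 bases over all genes tested. From the shortest to the longest 10% of genes the median change went from 0.07 to −0.14. In the longest of these groups 0.804% of genes were called higher and 5.7% lower, and in the shortest 3.07% and 1.68%. The libraries differed in this within groups. The median log2 CPM of the longest less that of the shortest 10% of genes, centred for each gene, was 0.26, 0.07, 0.07 and 0.26 in OCsCtr and 0.09, 0.10, −0.32 and −0.11 in OCsEo, so that OCsEo 3 and 4 stood lowest. With the length trend of each library taken out, 464 genes were called higher and 267 lower, of which 630 were among the 804 first called. The source of the trend was not tested.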

How the data were processed

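RNA-seq libraries of osteoclast cultures were analysed from the gene table that the authors deposited, which holds raw counts per gene with no normalization. The authors trimmed paired-end reads with fastp, aligned them with HISAT2 2.0.5 to GRCm38/mm10 and counted them per gene with featureCounts. The annotation release and the strand setting of counting are not given in the sources used here, so counts of overlapping genes are uncertain. Gene lengths and coordinates are those in the deposited table. Exon overlaps were taken from GENCODE vM21, and promoter windows from RefSeq.

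The software was edgeR 4.0.16 and limma 3.58.1 in R 4.3.3, and DESeq2 1.42.0 as an alternative. Genes with low counts were removed with filterByExpr (minimum count 10), libraries were scaled by TMM, and 1 fit of all 12 libraries in 3 groups without a replicate block was tested with the quasi-likelihood F-test. CPM values are TMM-scaled. The steps were tested on simulated data. Floors cover counting error only. Replicates of a group differed by more than sampling noise (chi-square per degree of freedom 10.1 to 36.1).

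The genes named by rule are 70 in number. They comprise the 12 largest rises and falls defined in the report, the 2 called members with the largest change in each functional list, and the first tested member of each list, leaving out genes named in the study's text or primers or in earlier results of these data, but not those shown only in its heat maps. Other list members are named as examples. Some members that enter the list counts are not reported here by name. The members, the lists and this rule were chosen with earlier results of these data known. The alternatives are other tools, scalings, filters and thresholds, a replicate block, mitochondrial or eosinophil and neutrophil genes left out, a trend by gene length removed from each library, and the omission of single libraries.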

Additional observations from a re-analysis of the deposited data

Results flagged for a closer look

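In 6 of 140 groups of 4 libraries, over the 70 genes named by rule, 1 library stood apart from the others by Dixon's criterion at its 95% critical value, where chance alone flags about 1 in 20 groups. OCsEo 4 was the library in 3 of the 6. For Arg1 it was at 2.22 CPM, against 0.628 to 0.744 CPM in the other OCsEo libraries. For Ctss it was at 1370 CPM, against 1070 to 1090 CPM. For Adgre1 it was at 418 CPM, against 313 to 324 CPM. OCsCtr 2 stood low for Egln3, at 0.682 CPM against 1.27 to 1.39 CPM, and for C5ar1, at 21.5 CPM against 28.2 to 28.9 CPM. OCsEo 2 stood low for 1810011H11Rik, at 11.5 CPM against 15.4 to 16 CPM. The calls of Arg1 and C5ar1 were lost without these libraries, as given in the report.

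The response differed between both treatments, by a direct edgeR test of OCsEoS against OCsEo, for 10 of the 70 genes. On the log2 scale the difference of OCsEoS from OCsEo was −2.05 for Cyp4f18, −1.71 for Serpinb2, −1.67 for Pglyrp1, −1.59 for Fam101b, −1.21 for Fam83f, −1.18 for Npy and −1.06 for Ccl3. It was −0.86 for Gpnmb, −0.64 for Mmp12 and −0.63 for Fabp5. In all 10 the 4 OCsEo libraries lay above the 4 OCsEoS libraries. The 10 had been chosen as genes higher in the same OCsEo libraries, which favours this direction.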

How the results depend on the processing

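The count of called genes stayed within 1.5 times of 804 under all alternatives other than thresholds, from 731 with the gene length trend taken out to 876 with DESeq2 on the 8 libraries, and from 664 (without OCsCtr 2) to 980 (without OCsEo 2) with 1 library left out. Left out in turn, the libraries gave 367 to 491 genes higher and 297 to 489 lower. Without a fold change threshold 2382 genes were called (1239 higher, 1143 lower). With a threshold of 1 there were 136 (99 and 37), and with glmTreat against 0.5 there were 50 (43 and 7). Fewer genes pass by construction as the threshold rises. With the length trend taken out 63.5% of the called genes were higher, against 55.6%, and the cause was not tested.

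Whether the replicate numbers pair the samples was not settled. Same-numbered libraries correlated weakly in their deviations from the group means, at 0.0446, −0.0435, 0.0944 and 0.0752. OCsEo 1, OCsEo 3 and OCsEo 4 each correlated best with the control of the same number, while OCsEo 2 correlated best with OCsCtr 1 (0.1234). The fit with a replicate block called 854 genes, 769 of them among the 804. With the block C1qa (0.63, adjusted p = 0.00929) and Mki67 (0.55, adjusted p = 0.0114) were called in addition.

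Of 55 called genes among the 70, 42 kept the call under all 19 alternatives other than thresholds, 13 lost it under at least 1, as named in the report, and 0 changed direction. Arg1 was also lost with edgeR on the 8 libraries (adjusted p = 0.0838). Among genes not called, the sign turned for Ifit1 without OCsEo 4 (−0.0502, range with 1 library left out −0.0502 to 0.4458), for Cybb without OCsCtr 4 (0.0484, range −0.2051 to 0.0484) and for H2-Aa with the length trend taken out (−0.0223) or without OCsCtr 1 (−0.0026), OCsCtr 3 (−0.0206) or OCsEo 2 (−0.0251, range −0.0251 to 0.1712). The cause was not tested. Depth limits genes near the floor of 0.0744 to 0.107 CPM by total counts, such as Epx.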
